A study of Homo sapiens with 6 samples.

Results

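Open chromatin far from protein-coding genes was examined in MCF-10A, an established cell line of human mammary epithelium that forms no tumours. The assay was ATAC-seq, which maps where the Tn5 transposase can reach the DNA. Peaks of 3 lists were merged where they touched or overlapped, and a merged region was called a gene desert region when its midpoint lay more than 300 kb from the canonical start of every protein-coding gene (19111 autosomal starts, GENCODE release 44, hg38). This rule kept 10846 of 120615 regions, or 8.99% (95% Wilson interval 8.83 to 9.15, as for all intervals below, for counting error alone), and they covered 5.32 Mb of the 90.1 Mb in peaks. The lists stood for parental cells with wild-type PIK3CA (WT) and for knock-in lines with PIK3CA E545K (helical domain) or H1047R (kinase domain), both changes of the enzyme's catalytic subunit. The parental medium held 20 ng/ml EGF, the knock-in medium none, and for 24 h before harvest every culture was given 0.2 ng/ml EGF and 1% stripped serum. Insulin, hydrocortisone and cholera toxin were common to all groups. Each genotype had 2 samples, pooled by the authors into 1 peak list, so no difference below has a replicate check. Genotype, line and maintenance medium cannot be told apart in this design.

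Gene deserts are long stretches of the genome without protein-coding genes. Some hold enhancers, DNA elements that bind transcription factors and act on a promoter over a long distance, and the deserts beside MYC and SOX9 are textbook examples. Others hold few open elements and lie in condensed chromatin, often beside genes of the nervous system that epithelial cells do not use.

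The sequences below run from 100 bases before to 100 bases after the summit of 9 members that the results turn on: the strongest of a presence pattern or of a desert core that leaned to some of the lists, and the member farthest from a coding start. Those of the chromosome 16, AJAP1 and AGBL4 cores were chosen after their values were seen. They are read from the plus strand of hg38, and capitals mark matches to the motifs of AP-1, CTCF, TEAD, RUNX, GRHL or p63 on either strand.
LINC03061 start near IRS2, all 3 lists, chr13:109272014-109272214: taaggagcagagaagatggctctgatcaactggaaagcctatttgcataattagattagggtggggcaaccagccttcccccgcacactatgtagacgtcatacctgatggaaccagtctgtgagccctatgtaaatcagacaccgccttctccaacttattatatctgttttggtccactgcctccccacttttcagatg
ADGRB3 intron, WT only, chr6:69179793-69179993: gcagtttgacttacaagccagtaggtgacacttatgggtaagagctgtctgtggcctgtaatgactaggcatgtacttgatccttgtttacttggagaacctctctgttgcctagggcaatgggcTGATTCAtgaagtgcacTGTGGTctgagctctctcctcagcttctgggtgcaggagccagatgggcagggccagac
chromosome 16 core, WT only, chr16:35365812-35366012: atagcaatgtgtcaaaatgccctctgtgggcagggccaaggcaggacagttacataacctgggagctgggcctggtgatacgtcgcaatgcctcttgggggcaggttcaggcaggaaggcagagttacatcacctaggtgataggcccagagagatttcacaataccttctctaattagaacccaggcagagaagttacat
AJAP1 to NPHP4, all 3 lists, chr1:5652237-5652437: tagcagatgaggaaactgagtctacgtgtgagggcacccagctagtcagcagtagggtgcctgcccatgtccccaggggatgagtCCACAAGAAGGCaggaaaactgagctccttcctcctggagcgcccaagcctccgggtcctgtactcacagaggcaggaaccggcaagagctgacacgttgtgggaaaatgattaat
beyond GATA3, both knock-ins, chr10:8366189-8366389: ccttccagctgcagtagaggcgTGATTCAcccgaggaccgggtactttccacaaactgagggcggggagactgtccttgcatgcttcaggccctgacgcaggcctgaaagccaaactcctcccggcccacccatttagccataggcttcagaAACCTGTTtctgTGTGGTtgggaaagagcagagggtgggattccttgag
AGBL4 intron, both knock-ins, chr1:49334041-49334241: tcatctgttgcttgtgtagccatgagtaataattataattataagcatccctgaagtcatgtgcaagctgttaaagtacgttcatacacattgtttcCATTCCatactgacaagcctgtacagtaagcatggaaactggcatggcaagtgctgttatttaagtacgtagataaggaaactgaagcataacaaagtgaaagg
LINC02987, H1047R only, chr19:27859307-27859507: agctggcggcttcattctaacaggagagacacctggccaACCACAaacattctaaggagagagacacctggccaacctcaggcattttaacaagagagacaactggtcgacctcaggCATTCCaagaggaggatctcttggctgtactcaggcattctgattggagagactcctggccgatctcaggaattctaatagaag
pseudogene before TUBA3C, E545K only, chr13:18280088-18280288: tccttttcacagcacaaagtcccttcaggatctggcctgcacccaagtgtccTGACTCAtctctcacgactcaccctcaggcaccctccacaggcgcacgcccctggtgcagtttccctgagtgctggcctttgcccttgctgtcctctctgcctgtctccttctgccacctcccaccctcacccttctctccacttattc
farthest from a coding start, all 3 lists, chr21:5123739-5123939: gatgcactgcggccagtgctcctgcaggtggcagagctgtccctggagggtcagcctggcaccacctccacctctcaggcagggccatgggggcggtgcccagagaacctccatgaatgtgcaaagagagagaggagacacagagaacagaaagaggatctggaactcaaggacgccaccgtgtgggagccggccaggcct
The strongest member had no match to these 6 motifs, while the WT-only ADGRB3 summit held an AP-1 and a RUNX match 17 bases apart and the summit beyond GATA3 an AP-1, a GRHL and a RUNX match. Both of these AP-1 matches read TGATTCA, which the letters sought, TGANTCA, allow beside TGACTCA and TGAGTCA. That at ADGRB3 is also a match to the HOX-PBX motif TGATTNAT. The H1047R-only summit was built of a short repeat, with the word gagagac 4 times at spacings of 35, 35 and 70 bases. The summit between AJAP1 and NPHP4 carried a CTCF match. The farthest member and the strongest of the chromosome 16 core had no match to these motifs.

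Epithelial marker promoters were open. A peak lay within 1 kb of the canonical start of 9 of 10 basal epithelial markers and of 6 of 6 general epithelial markers in each list, the exception being the canonical start of TP63. Of 7 immune markers 1 had one in WT, 2 in E545K and 1 in H1047R. Of 4 endothelial markers 1 had one, in WT alone. Of 4 neural markers 2 had one in WT and H1047R and 1 in E545K, and of 4 fibroblast markers 2 in WT and E545K and 1 in H1047R. The PIK3CA promoter had a peak in all 3 lists. Values per sample and sequencing depth are not given by these lists, so the depth is unknown.

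The word desert held only in part. The midpoint of 2293 members (21.1%, 20.4 to 21.9) lay inside the body of a protein-coding gene, in an intron in 2146 cases, because genes longer than the limit hold stretches far from their own canonical start. A further 2703 lay in introns of long noncoding RNA (lncRNA) genes, and 5417 (49.9%) lay in no annotated gene. Counting every annotated start of a coding gene and not the canonical one alone, 7327 members (67.6%) were still more than 300 kb away, and 66 sat within 1 kb of an alternative start. At the limit itself, 461 regions at 300 to 310 kb had a median area of 577 and 54.0% were in all 3 lists, and 480 regions at 290 to 300 kb had a median of 522 and 54.6%, so the limit marks no step. The area is the deposited signal value of a peak, integrated over its width by the peak caller. Medians over regions and classes of area use the strongest peak of a region, whereas a value given for 1 list is the sum over that list's peaks in the region. Areas are not scaled between lists, so values set side by side below are descriptions.

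Long introns carried most of the members inside coding genes, which numbered 318. PDE4D, a phosphodiesterase that degrades cyclic AMP (ENSG00000113448.21, chromosome 5, 58969038 to 60522120), held 49 members. MACROD2, a hydrolase that removes ADP-ribose from proteins, held 46, the adhesion receptor gene TENM2 43, and the fragile-site genes FHIT and WWOX 40 and 30. PTPRM, a receptor phosphatase of cell contacts, and RAD51B, of homologous recombination, held 31 each, and NRXN3, of synapses, 30. Over all members 75.4% had a WT peak, 65.1% an E545K peak and 82.5% an H1047R peak, against which counts by list are to be read. INPP4B, a phosphatase that removes the 4-phosphate of PI3K lipid products, held 27 members, with 25 open in E545K, 20 in H1047R and 18 in WT. In AUTS2, a nuclear regulator of neural development, 33 members included 32 with an H1047R peak, 24 with a WT peak and 12 with an E545K peak. Among 970 lncRNA genes, CCDC26 beside MYC held the most members, 36, followed by LINC00598 with 34, and ENSG00000234810 and LINC00511, the latter beside SOX9, with 30 each.

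Peaks in gene deserts were smaller than the others in each list. The WT list had 8272 peaks in members (8.36% of the list), with a median width of 357 bp against 480 bp for the peaks nearer to a start and a median area of 494 against 671. The E545K list had 7132 (7.98%), with medians of 400 against 558 bp and 486 against 641. The H1047R list had 9031 (8.46%), with medians of 368 against 480 bp and 488 against 657. The median summit -log10 p was 3.84 in WT, 3.70 in E545K and 3.75 in H1047R, against 4.30, 4.01 and 4.20 nearer to a start. Peaks wider than 2000 bp were scarce, at 0.35% of desert peaks in WT, 0.57% in E545K and 0.37% in H1047R, against 4.22%, 5.83% and 4.24%.

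Density fell with distance from coding starts. Sequence more than 300 kb from a start made up 651.5 Mb, 23.6% of the sequenced autosomes, and held 16.65 regions per Mb against 52.2 within 300 kb. Within 10 kb of a start there were 95.1 regions per Mb, at 200 to 300 kb 30.3, at 300 to 500 kb 22.4, at 500 to 1000 kb 15.98 and beyond 1000 kb 8.69. The share of regions in all 3 lists moved with it, from 72.2% (71.7 to 72.7) within 10 kb to 53.4% (52.1 to 54.7) at 300 to 500 kb and 46.9% (44.3 to 49.6) beyond 1000 kb. The median area fell over the same classes, from 1114 to 513 and 434, and shares within classes of area are given below. The median member lay 491900 bp from the nearest coding start, and the farthest, on chromosome 21, 5397733 bp.

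**Figure D1:**
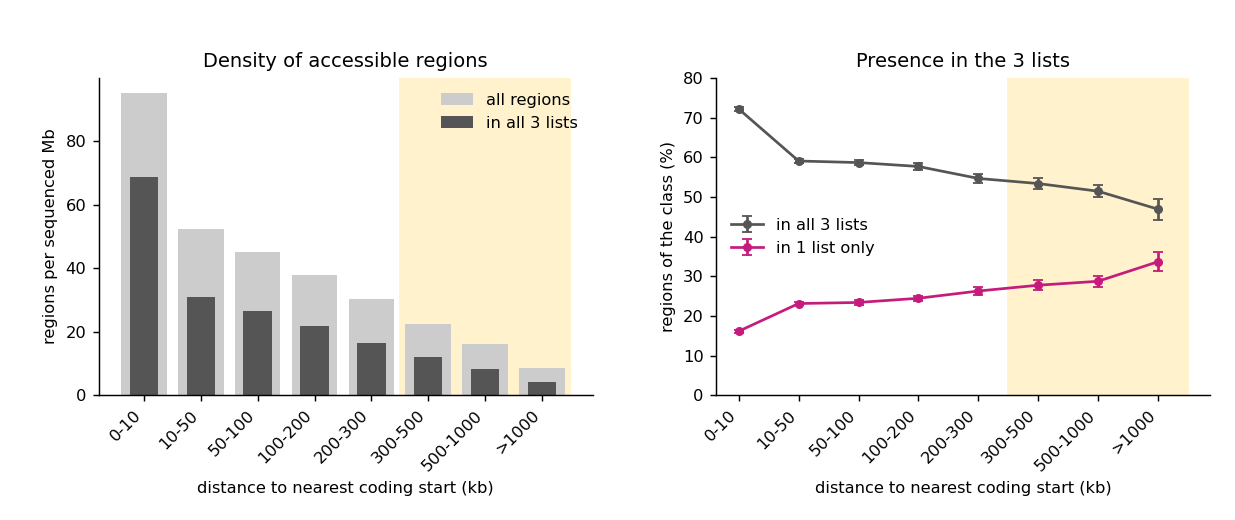
Left, regions per sequenced Mb in classes of distance to the nearest coding start (kb), all regions in pale bars and those in all 3 lists in dark bars; right, the percentage of each class in all 3 lists and in 1 list only, with 95% Wilson intervals. The gene desert classes are shaded, and density falls from 95.1 to 8.69 per Mb and presence in all 3 lists from 72.2% to 46.9%.

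Fewer members than other regions were common to the lists. In all, 5625 members (51.9%, 50.9 to 52.8) had a peak in each list, where the share over all merged regions was 61.2%. Single-list members numbered 3129 (28.9%), against 22.3% of all regions. WT alone held 1089 of them (10.0%, 9.49 to 10.6), against 6.73% of all regions. H1047R alone held 1539 (14.2%, 13.6 to 14.9), against 11%, and E545K alone 501 (4.62%, 4.24 to 5.03), against 4.52%, a share near the background. That nearness depended on weak peaks. With peaks of a summit -log10 p of at least 3, E545K alone held 3.76% of members against 2.22% of regions within 300 kb of a start. Of the pairs, WT and H1047R shared 1157 members (10.7% against 9.76%), both knock-ins 624 (5.75% against 4.62%) and WT and E545K 311 (2.87% against 2.13%). The H1047R list is the longest of the 3 and the E545K list the shortest: when each was cut to its strongest peaks at the length of the shortest, the share in H1047R alone was 8.38%, against 6.58% of regions within 300 kb of a start, in E545K alone 8.87% against 7.42%, and in WT alone 10.5% against 6.84%. In those shortened lists WT and H1047R shared 5.85% of members (5.34% nearer to a start), WT and E545K 5.57% (4.22%) and both knock-ins 6.73% (5.07%), so that the pair of knock-ins came first in place of WT and H1047R.

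Members had smaller areas than other regions, so the same shares were taken within 4 equal classes of area of all regions. From the lowest class to the highest, 8.63%, 50%, 84.0% and 97.1% of members were in all 3 lists. The shares of regions within 300 kb of a start were 8.92%, 51.5%, 86.3% and 98.6%. Over all areas the shares were 51.9% and 62.1%, so within classes of area they lay much closer. In the lowest class the members with a peak in WT alone made up 21.9% (20.5 to 23.3), close to the 20.4% (19.9 to 20.9) of regions within 300 kb of a start. In the next classes the WT-only share was 8.07% (7.17 to 9.08) against 4.97% (4.72 to 5.24), then 2.39% (1.88 to 3.03) against 0.78% (0.68 to 0.89), and in the highest 0.81% (0.47 to 1.42, 12 of 1477) against 0.094% (0.065 to 0.137, 27 of 28677). The corresponding shares for H1047R alone were 33.8%, 9.92%, 1.85% and 0.27% in members and 32.01%, 9.92%, 1.87% and 0.13% in the other regions. Those for E545K alone were 10.8%, 3.31%, 0.83% and 0 of 1477 in members, against 13.2%, 4.10%, 1.06% and 0.094%. Over the 2 highest classes, 78 of 4237 members (1.84%, 1.48 to 2.29) were WT-only against 241 of 56070 other regions (0.43%, 0.38 to 0.49), a ratio of 4.28. The ratio was 0.96 for E545K alone (23 members), 1.33 for H1047R alone (55 members) and 1.46 for both knock-ins without WT (134 members, 3.16% against 2.16%). These ratios are not matched for area, since 2760 of the 4237 members but 27393 of the 56070 other regions lay in the lower of the 2 classes. In that class the H1047R-only shares were alike, and both knock-ins without WT had 4.46% against 3.90%. In the highest class that pair had 0.74% against 0.51%. Nor are the ratios matched for distance, since the other regions include those at coding starts. Over all areas the WT-only share was 4.35% within 10 kb of a start, 7.70% at 100 to 200 kb and 8.93% at 200 to 300 kb. Past the limit it was 10.2% at 300 to 500 kb, 9.68% at 500 to 1000 kb and 10.4% beyond. The stronger WT-only share was not taken for regions at 200 to 300 kb alone.

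**Figure D2:**
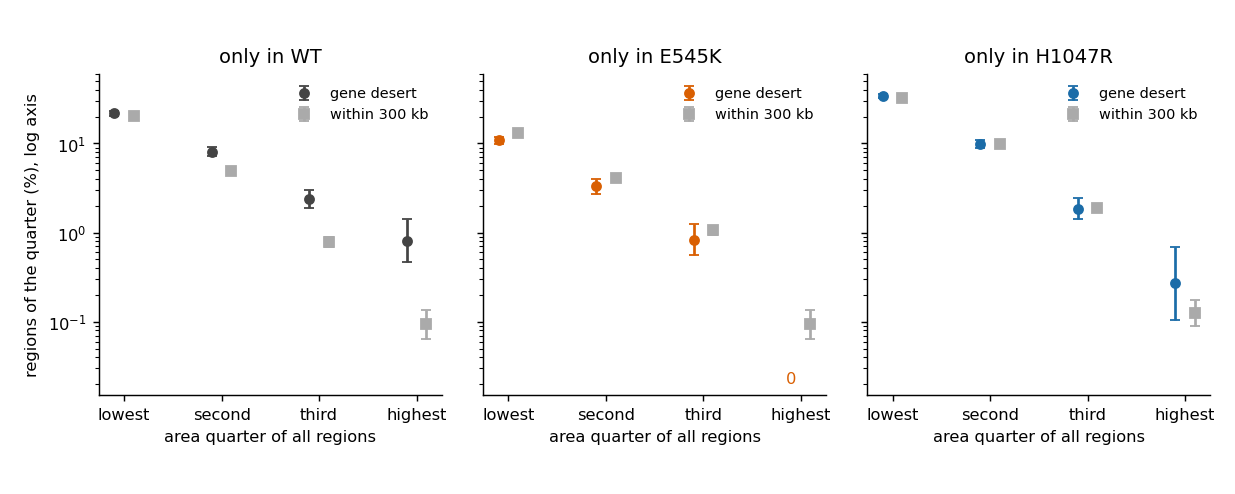
Percentage of regions found only in WT, only in E545K or only in H1047R (log axis) in each of 4 equal classes of area of all regions, for gene desert regions (circles) and regions within 300 kb of a coding start (squares), with 95% Wilson intervals. In the highest class 0.81% of gene desert regions against 0.094% of the others were only in WT, and the 0 marks that no gene desert region there was only in E545K.

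The 78 stronger WT-only members lay on 17 chromosomes in 49 desert cores, a core being an unbroken stretch more than 300 kb from every coding start, named here by its flanking coding genes. Most of these cores (39) held 1 of them. The core with the most, 13, lay between ENSG00000284209 and SHCBP1 on chromosome 16. Without it the stronger WT-only share was 1.54%, still above that of the other regions. The cores and values in the next paragraphs were chosen after the counts were seen.

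In the chromosome 16 core all 22 members had a WT peak, none had one in E545K and 1 had one in H1047R. The members lay between 35134510 and 36072534, beside the centromere, and 6 of them lay in the lncRNA gene LINC01566. Their WT areas ran from 218 to 1891 with a median of 726, and the only H1047R peak had an area of 532. In 21 of the 22 the summit sequence occurred once on the autosomes. The core itself ran from 34681111 to 46321378, with 3.54 Mb of sequence, so its right end lay far from the members. Other regions within 1 Mb of either end of the core numbered 62. Of these, 51 had a peak in WT, 45 in E545K and 53 in H1047R. They were not counted by end, so whether the lean to WT stopped beside the members was not tested. WT-only members made up 30.4% of the members on chromosome 16, the highest share of the 22 autosomes, followed by 18.7% on chromosome 11.

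Few knock-in peaks were also found in cores beside genes of several kinds. Between JRKL and CNTN5, which encodes a contactin of axons (chromosome 11), all 13 members had a WT peak, with areas from 208 to 1557, and 1 had a peak in either knock-in, the strongest of the core (1557 in WT, 1001 in E545K and 802 in H1047R). Between MYT1L, a neuronal transcription factor gene, and EIPR1 (chromosome 2), 8 of 10 members were WT-only with a median area of 753, the other 2 were E545K-only at 231 and 290, and none had an H1047R peak. Between EYS and ADGRB3, an adhesion receptor gene of synapses (chromosome 6), 25 of 27 members had a peak in WT, 7 in E545K and 11 in H1047R. There the split went past the core, since the 12 other regions within 1 Mb all had a WT peak, 2 an E545K peak and 1 an H1047R peak. The ADGRB3 promoter was open in WT and E545K, without an H1047R peak. Between GALR1 and SALL3, a zinc-finger transcription factor gene (chromosome 18), all 5 members were WT-only, with areas from 200.1 to 2012.

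Other cores lacked H1047R peaks most. Between CDH11 and CDH5, cadherin genes of mesenchyme and endothelium (chromosome 16), 15 of 16 members had a WT peak, 10 an E545K peak and 1 an H1047R peak. The CDH5 promoter had a peak in WT alone. Between GNPDA2, of amino sugar metabolism, and the GABA receptor gene GABRG1 (chromosome 4), the counts were 17, 8 and 3 of 18. Between AJAP1, an adherens junction gene, and NPHP4, of the primary cilium (chromosome 1), they were 20, 6 and 2 of 20, and the strongest member, printed above, reached 5305 in WT, 2765 in E545K and 498 in H1047R. Between DAB2 and PTGER4, a prostaglandin receptor gene (chromosome 5), where both flanking promoters had a peak in each list, the order of the knock-ins was turned, with 15 of 16 members in WT, 3 in E545K and 6 in H1047R.

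Other cores leaned to the knock-ins. Between BEND5 and AGBL4 on chromosome 1, none of 16 members had a WT peak, 12 had a peak in E545K and 14 in H1047R, and 10 had one in both. All 16 lay inside the body of AGBL4, a carboxypeptidase that trims glutamate from tubulin tails, between 49102718 and 49686509. Their areas ran from 219 to 1297 (median 333) in E545K and from 227 to 823 (median 481) in H1047R. The canonical start of AGBL4 had a peak in H1047R alone. Of the 62 other regions within 1 Mb, 38 had a peak in WT, 43 in E545K and 59 in H1047R. On chromosome 19, between ZNF254 and UQCRFS1, all 14 members had an H1047R peak, 4 a WT peak and 3 an E545K peak, and 10 of the 16 members on that chromosome (62.5%) were H1047R-only. At the end of chromosome 13 before TUBA3C, all 11 members had an E545K peak and 3 had one in each of the other lists, and 4 of the 11 had a repeated summit sequence. Between C8orf90 and TSNARE1 on chromosome 8, 16 of 42 members were E545K-only, the highest share among cores of at least 20 members. Of the 358 other regions within 1 Mb of that core, 327 had a peak in E545K, 166 in WT and 161 in H1047R. Among the 369 cores with at least 10 members, the median share of members without a peak was 24% for WT, 33.3% for E545K and 13.6% for H1047R, and at least 60% of members lacked a peak in WT in 4 cores, in E545K in 20 and in H1047R in 11.

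**Figure D3:**
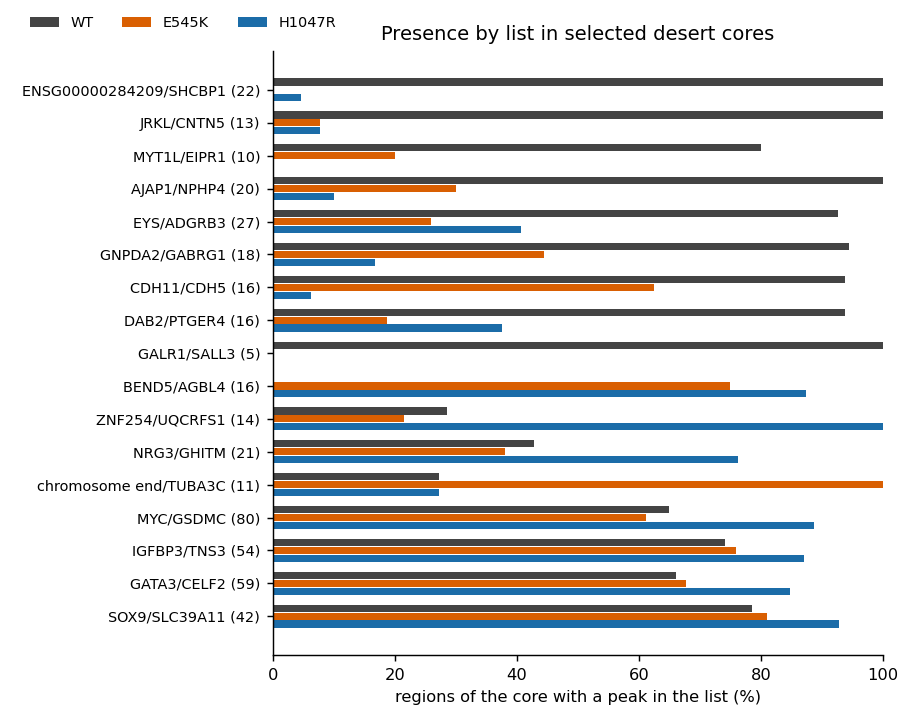
Percentage of the regions of selected desert cores that had a peak in WT, E545K or H1047R; each row is a core named by its flanking coding genes, with its number of regions in parentheses. All 22 regions of the chromosome 16 core and none of the 16 between BEND5 and AGBL4 had a WT peak, while the cores beside MYC, IGFBP3, GATA3 and SOX9 had peaks of each list. The core between C8orf90 and TSNARE1 is not drawn.

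The cores numbered 898, with a median length of 0.38 Mb and a median of 7 members, and 101 held none. Most members lay between AGA and TENM3 on chromosome 4, with 94 in 4.20 Mb, then B3GALT2 and KCNT2 (84), CELF4 and PIK3C3 (83), MYC and GSDMC (80), and TMEM132B and TMEM132C (74). PCDH7 and ARAP2 bounded 69, SORCS3 and SORCS1 68, RAG2 and LRRC4C 66, VRK1 and BCL11B 62, and PLA2G4A and BRINP3 61. The 10 fullest cores together held 741 members (6.83%). Among cores of at least 1 Mb the densest was that beside MYC, the growth-promoting transcription factor gene, with 55.2 members per Mb. It was followed by the core between IGFBP3, a binding protein of insulin-like growth factors, and TNS3, a focal adhesion tensin, with 50.9, and by the end of chromosome 14 beyond TMEM121, which spans the immunoglobulin heavy chain locus, with 45.4. METTL15 and KCNA4 bounded 41.3 per Mb, and HS6ST1 and RAB6C 40.5. In the MYC core 52 of 80 members had a peak in WT, 49 in E545K and 71 in H1047R, beside 75.4%, 65.1% and 82.5% of all members, with median areas of 565, 519 and 543.

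At the other end, the longest core, between ANKRD30B and ROCK1 across the centromere of chromosome 18, held no member in 5.70 Mb of sequence. The core between RBFOX1, a neuronal splicing factor gene, and TMEM114 held none in 1.97 Mb, and that between NCAM2, a neural adhesion gene, and MRPL39 held 1 in 4.01 Mb, a WT-only region. ZNF716 and ZNF722 bounded 5.65 Mb with 1 member, KCNJ18 and WSB1 4.85 Mb with 14, and ZNF337 and DEFB115 4.73 Mb with 30.

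The state of the flanking promoters went with the density and the presence patterns. For the 890 cores between 2 coding starts, those with neither flanking promoter open in all 3 lists held 11.2 members per Mb, those with 1 open 16.4 and those with both open 21.1. The share of members in all 3 lists was 46.3%, 50.4% and 55.2% in the same order. WT-only members made up 15.5% (13.7 to 17.4), 11.03% (10.17 to 11.96) and 7.33% (6.61 to 8.13). E545K-only shares were 4.47%, 4.87% and 3.91% and H1047R-only shares 12.7%, 14.7% and 14.3%, without that order. The classes come from the same 3 lists, and a promoter open in WT alone, such as that of CDH5, counts as not open. Loci that lean to WT can thus enter the lower classes by definition, and the size of this part was not tested. The median GC content around the summit was 43.8% in each class.

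**Figure D4:**
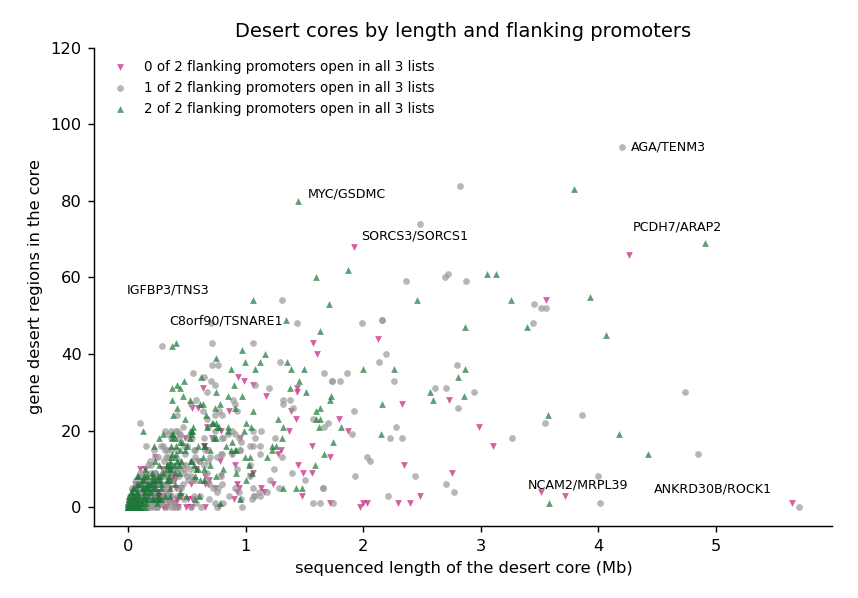
Each point is a desert core between 2 coding starts, by its sequenced length (Mb) and its number of gene desert regions, with symbols for how many of the 2 flanking promoters had a peak in all 3 lists. Numbers did not follow length alone: the core beside MYC held 80 regions in 1.45 Mb, and that between ANKRD30B and ROCK1, across the centromere of chromosome 18, held 0 in 5.70 Mb.

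By the kind of flanking gene, deserts beside growth and secreted signal genes were dense, with 256 members in 19 cores and 29.7 per Mb, against 16.65 over all cores. INHBA, a subunit of activins, flanked 41 members, IGFBP3 54, WNT5A 19, TGFB2 12 and NRG1, which encodes an ERBB receptor ligand, 26. Other genes of this list flanked few, with 5 for FGF9 and 0 for BMP7 and DKK1. Deserts beside 49 developmental transcription factor genes held 1028 members in 64 cores at 23.5 per Mb. The SOX9 cores held 80 members, of which 60 had a peak in WT, 57 in E545K and 74 in H1047R, the WT count lying near the share over all members given above. GATA3, a luminal breast regulator, flanked 59, BCL11B 62, KLF5 33, TBX3, a mammary regulator, 38, BNC2, of basal epithelium, 37, and SALL3 only 5. Neural adhesion and synapse genes bounded 126.1 Mb, the longest territory of the 3 lists of genes, with 1645 members in 73 cores and 13.1 per Mb. The 19 signal cores spanned only 8.62 Mb and the 64 transcription factor cores 43.7 Mb. Density fell with distance from coding starts, and these densities were not matched for core length or distance. The part of length in their order was not tested. Of the neural members 48.2% were in all 3 lists, against 53.5% for the transcription factors, 55.9% for the signals and 51.9% of all members. PCDH7 flanked 123 members (83 with a peak in WT, 81 in E545K, 103 in H1047R) and TENM2 102 (82, 74 and 84), while CNTN5 flanked 18 (17 with a peak in WT, 4 in E545K, 6 in H1047R), LRRTM4 9 (9, 4 and 1) and PCDH17 8 (8, 2 and 3). The WT-only share was 11.5% (10.0 to 13.1) for the neural list, 8.27% (6.74 to 10.1) for the transcription factors and 8.59% (5.74 to 12.7) for the signals, beside 10.0% of all members. The H1047R-only share was 16.4% for the neural list, 12.65% for the transcription factors and 15.2% for the signals, beside 14.2% of all members.

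The strongest members were open in every list. The largest, 15872 bp wide at the start of LINC03061, lay 514322 bp from IRS2, the gene of an adapter of the insulin receptor (chromosome 13, 109264325 to 109280196), where the WT area was 48550, the E545K area 44090 and the H1047R area 38000. A neighbour in an intron of MYO16 (109153820 to 109157720) had 10950, 9712 and 7940. In LINC00511, 469076 bp from SOX9 (chromosome 17, 72586882 to 72593309), the areas were 13380, 11470 and 8497. The region 303228 bp from SGK1, a kinase gene downstream of PI3K (chromosome 6, 134619552 to 134623127), had 10480, 9099 and 8995, and that in no gene 624920 bp from CHSY3 (chromosome 5, 130527788 to 130530981) had 9589, 10690 and 9253. A region in an exon of the lncRNA ENSG00000263547, 363816 bp from ZNF516, a zinc-finger protein gene (chromosome 18, 76130398 to 76132454), had 7195, 7314 and 8767.

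A cluster of 22 members lay in DST, which encodes the hemidesmosome linker dystonin. Of these, 15 had a WT peak, 14 an E545K peak and 13 an H1047R peak. H1047R alone held 6, WT alone 2 and E545K alone 0. The regions named here were chosen for their area, the neighbours as the largest members of WT and E545K without H1047R. They do not stand for the whole gene. The region at 56610627 to 56621618 on chromosome 6 reached 22740 in WT, 17070 in E545K and 4195 in H1047R, a shift in rank within the list of -7.60 percentile points from WT to H1047R. Its neighbours at 56624084 to 56628980 (7012 and 4774) and 56636206 to 56638326 (3940 and 2943) had no H1047R peak. The summit sequences of these neighbours occur 3 and 1433 times on the autosomes. An alternative DST start nearby (56642225 to 56643703) had 5670, 4374 and 2966.

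Members at alternative coding starts and at lncRNA starts were shared by the lists more often than members in no gene. Of 66 members within 1 kb of another coding start 66.7% (54.7 to 76.8) were in all 3 lists, and of 301 at a lncRNA start 63.5% (57.9 to 68.7), against 51.8% (50.4 to 53.1) of members in no gene. Their median areas were larger as well, at 789 and 680 against 487. An internal start of INPP4B (chromosome 4, 142473171 to 142475239) had an area of 6979 in E545K, 6156 in H1047R and 3507 in WT, with rank shifts from WT of 8.85 and 7.52 points, under the 20 points counted below, while another (142404943 to 142407023) had 5424, 5436 and 4848. A start of ROBO1, an axon guidance receptor gene (chromosome 3, 79017264 to 79020002), had 6951, 6363 and 7334. A start of LINC00511 (chromosome 17, 72464912 to 72466843) had 3353 in WT, 5030 in E545K and 6350 in H1047R.

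The largest members of single patterns were smaller. In WT alone they were a region in an intron of ADGRB3 (chromosome 6, 69179649 to 69181124, area 4478), 1 beyond ANKRD30A (chromosome 10, 37489046 to 37490194, 2274) and 1 before SALL3 (chromosome 18, 78632084 to 78632752, 2012). In H1047R alone they lay in LINC02987 (chromosome 19, 27858870 to 27861026, 3113), near SRGAP2C (chromosome 1, 121511382 to 121512212, 2111) and near TNC, the gene of the matrix protein tenascin C (chromosome 9, 115483747 to 115484421, 2017). The largest E545K-only member had an area of 1140 (chromosome 13, 18279645 to 18280621, in a pseudogene). Both knock-ins without WT had a peak 311752 bp from GATA3 (chromosome 10, 8365931 to 8366948, 2475 in E545K and 1109 in H1047R), 948936 bp from SLC10A2, a bile acid transporter gene (2466 and 1141), and 302248 bp from SMARCA2, a chromatin remodeler gene (2254 and 1653). WT and H1047R without E545K shared a region 585662 bp from INHBA (2680 and 2918).

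Areas cannot be compared directly between lists, so the 69662 regions with exactly 1 peak in each list, 5465 of them members, were ranked within each list, and a shift of at least 20 percentile points was counted. The share of members that shifted was above the background in each of 6 counts, though by little in the last. From WT to E545K 538 members moved up (9.84%, against 7.29% of all such regions) and 436 down (7.98% against 6.54%). From WT to H1047R 471 moved up (8.62% against 7.61%) and 494 down (9.04% against 6.64%). From H1047R to E545K 501 moved up (9.17% against 6.23%) and 374 down (6.84% against 6.67%, near the background). These comparisons share lists and are not independent. The median rank of members in WT was 38.9, against 50 for all such regions. The counts were not matched for area or rank, and the part of the lower rank in them was not tested. Shifts of members were spread more widely in both directions. From WT to H1047R their quartiles were -9.05 and 7.95 points, against -6.86 and 5.97 for all such regions. The median shift of members was 0.33 points from WT to E545K, -0.69 from WT to H1047R and 1.19 from H1047R to E545K.

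The regions with the largest shifts included 1 beyond PCDH7, a protocadherin gene (chromosome 4, 31613909 to 31614849), where the area was 217 in WT against 1629 in E545K and 1116 in H1047R. In an intron of GRM8, a glutamate receptor gene (chromosome 7, 126936952 to 126937849), the areas were 268, 1046 and 1590, and in a lncRNA before JARID2 (chromosome 6, 14706117 to 14706957) 287, 405 and 1570. In the other direction, a LINC00511 intron (chromosome 17, 72559978 to 72561601) had 2162 in WT, 1917 in E545K and 359 in H1047R, whereas the LINC00511 starts named above stayed high in each list. A region 367094 bp from TGFB2, which encodes a TGF-beta ligand (chromosome 1, 218711945 to 218712914), had 868, 299 and 2162. In AUTS2 (chromosome 7, 70614525 to 70615529) the areas were 435, 205 and 1491.

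The AP-1 motif, read by FOS and JUN proteins downstream of growth factor signalling, was the most frequent of 21 motifs sought on both strands within 100 bp of the summit of the strongest peak. TGANTCA was found in 45.8% of members (44.8 to 46.7), against 34.7% of all regions, 38.5% of regions at 10 to 300 kb and 20.9% within 10 kb of a start. Here N is any base, so TGATTCA and TGAATCA counted as well as TGACTCA and TGAGTCA, and their shares were not taken apart. The KLF-SP motif GGGCGG was in 3.27% of members against 13.9% of all regions, and the ETS motif CCGGAAG in 0.65% against 2.54%, whereas the NF-Y motif CCAAT was in 26.1% against 23.5%. The CTCF motif, bound by the insulator and loop protein, was in 2.77% of members against 4.77% at 10 to 300 kb and 4.56% of all regions. Motifs rich in A and T were more frequent than over all regions: C/EBP TTGCNNAA at 18.9% against 13.8%, SOX ACAATG at 14.64% against 10.5%, AGATAA of GATA factors at 11.1% against 8.17%, HOX-PBX TGATTNAT at 8.95% against 5.89% and forkhead TGTTTAC at 5.28% against 3.84%. TEAD GGAATG (20.0% against 17.4%) and RUNX TGTGGT (19.5% against 17.0%) differed less. Sought over whole regions, TEAD, RUNX and NF-Y matches were less frequent in members than in all regions. The ratios of members to all regions also fell for the motifs rich in A and T. C/EBP went from 1.374 to 1.048, SOX from 1.393 to 1.055, GATA from 1.356 to 1.056 and forkhead from 1.377 to 1.018. HOX-PBX went from 1.52 to 1.314. Peaks in members were narrower than the others, and the part of width in these whole-region values was not tested. Median GC content within 100 bp of the summit was 43.8% in members, 48.8% over all regions and 68.2% within 1 kb of a canonical coding start, and its part in these shares was not tested. The HOX-PBX motif and the NRF2 motif TGACNNNGC can overlap an AP-1 match. A match is a string of letters and no measure of binding.

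**Figure D5:**
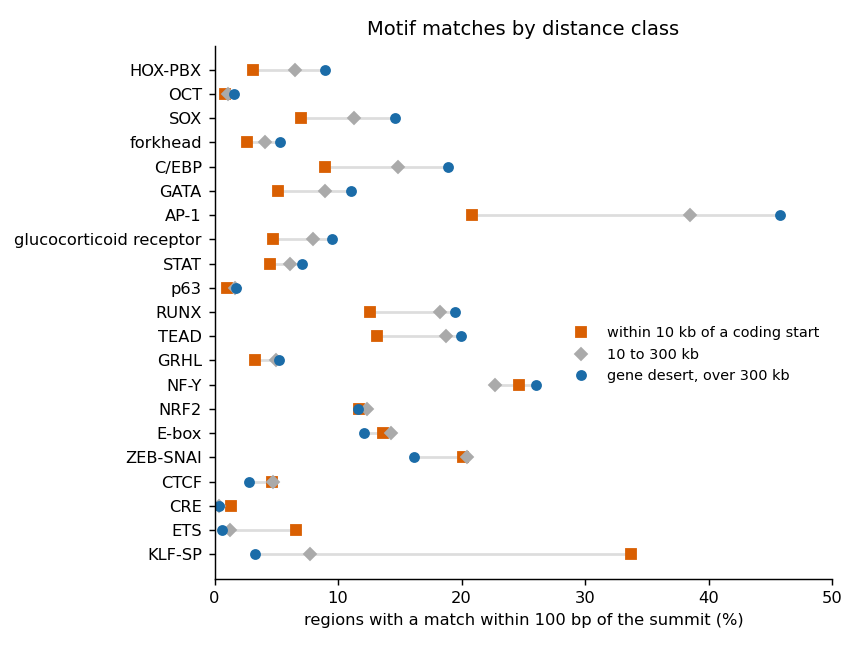
Percentage of regions with a match to each of 21 motifs within 100 bp of the summit, for regions within 10 kb of a coding start (squares), at 10 to 300 kb (diamonds) and in gene deserts (circles). AP-1 rises from 20.9% through 38.5% to 45.8% with distance, and KLF-SP falls from 33.7% through 7.75% to 3.27%.

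AP-1 matches differed by presence pattern among members. They were found in 51.5% (49.0 to 54.0) of H1047R-only members, 51.3% (48.5 to 54.2) of those of WT and H1047R, and 48.2% (46.9 to 49.5) of those of all 3 lists. The share was 42.8% (39.0 to 46.7) in both knock-ins without WT and 37.5% (34.6 to 40.4) in WT alone. Patterns of E545K without H1047R were lowest, with 27.65% (22.98 to 32.87) of WT and E545K members and 21.2% (17.81 to 24.95) of E545K-only members. Over all regions the same patterns had 44.3%, 41.5%, 35.0%, 31.8%, 28.2%, 20.2% and 13.3%, so members stood above all regions in each pattern. Repeated summit sequences were also most frequent in the last 2 patterns, at 10.6% of WT and E545K members and 9.78% of E545K-only members, against 5.66% of all members, and their part in the AP-1 shares was not tested. In the chromosome 16 core 27.3% of the members had an AP-1 match, and between JRKL and CNTN5 61.5%.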

How the data were processed

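ATAC-seq of 6 samples (2 for each of 3 genotypes) was deposited as 1 peak list per genotype. Per the submitters' processing notes, reads were trimmed with Trim Galore 0.4.0, the genome was hg38 and peaks came from Genrich 0.6.1. For the aligner, the name is not given in the sources that were used. As deposited, the signal column holds each peak's area and another column the authors' -log10 p at the summit. Both are the authors' values for both samples together. They were used for description, ranking and filtering inside each list, so no test across samples was made and depth is unknown. Only the 22 autosomes are listed, 0 columns of per-sample values were left unused, and RNA was not analysed here.

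Peaks that touched or overlapped were merged and measured from the midpoint to canonical coding starts of GENCODE 44 with Python 3.11.15, numpy 2.4.6, pandas 2.3.3 and scipy 1.17.1, and plots used matplotlib 3.10.9. Checked against bedtools 2.31.1, 0 of 120615 regions and 0 of 120615 distances differed. When WT peaks were deleted from regions with 1 peak in each list, 2000 of 2000 were relabelled as knock-in only. That outcome was near certain by design, so it checks the code and not the detection of real losses. Lengths count sequenced bases, because the reference carries no repeat masking, where bases outside repeats had been planned. A repeated summit is one whose central 32 bases occur more than once on the autosomes. Intervals are 95% Wilson intervals. Sequences were read from the hg38 reference.

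Names were drawn from the 10 cores with most members, the 5 densest and the 5 longest, the regions with the largest area in each list and pattern, at lncRNA and alternative coding starts, those with the largest rank shifts, the farthest region, the gene bodies with most members, and genes of 3 lists of flanking genes. Members, lists and rules were chosen with earlier results of these data known.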

Additional observations from a re-analysis of the deposited data

How the results depend on the processing

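No paired analysis was possible because each list pools both samples of a genotype, and for the same reason no sample could be left out. Bases outside repeats were not run, since the reference is not masked. Limits of 200 and 500 kb gave 17702 and 5284 regions, with 52.95% and 50.26% in all 3 lists and 28.2% and 13.17% in coding gene bodies. At 500 kb the E545K-only share was 5.034%, the H1047R-only share 15.1% and the share higher in E545K than H1047R 8.41%. A summit -log10 p of at least 3 gave 10.96% WT-only (7.385% nearer to a start) and 3.763% E545K-only (2.219%). In that setting WT and H1047R without E545K shared 11.31% (11.17%). Lists of equal length gave 54.14% in all 3, 8.872% E545K-only and 8.381% H1047R-only, and moved the pairs with WT to 5.566% (E545K) and 5.854% (H1047R). Counting regions of all 3 lists alone, density was 8.634 per Mb. Ranking by summit value, 12.41% of shared members were higher in E545K and 10.45% in H1047R than in WT, 11.07% were lower in H1047R than WT, and 11.86% were higher and 7.649% lower in E545K than H1047R. The AP-1 ratio of members to all regions, 1.318, was 1.183 over whole regions, and the CTCF ratio, 0.607, was 0.6836 within 50 bp and 0.5124 over whole regions. Over whole regions the ratio turned below 1 for p63 (0.8479), TEAD (0.888), RUNX (0.8849), GRHL (0.9227), STAT (0.8851), the glucocorticoid receptor (0.9767) and NF-Y (0.9565), and within 50 bp that of NRF2 turned to 1.02. The causes were not tested. Alternatives with unrepeated summits, without the chromosome 16 core and with strength by summit value were chosen after seeing the data, as were all 9 of the stronger WT-only share, which ran from 1.497% to 2.226%. Without that core the stronger WT-only share was 1.54%, and by summit value it was 1.98% against 0.372% nearer to a start.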
